A study of Mus musculus with 8 samples.

Results

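Thymic stromal lymphopoietin (TSLP), interleukin-33 and interleukin-25 are alarmins, cytokines that epithelial cells make and that start type 2 immunity. The 10 genes described here were chosen by name as these ligands, their downstream cytokine and the receptor chains that read them: Tslp, Il33, Il25, Il13, Ccl11, Crlf2, Il7r, Il4ra, Il13ra1 and Il13ra2. All 10 were found among the 36333 genes of the deposited table, and 9 of them had enough reads to be tested.

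RNA-seq was performed on whole skin of 8-week-old male C57BL/6J mice. The 4 control mice were Nampt flox/flox, and the 4 Nampt-cKO mice were Nampt flox/flox; KRT5-CreERT2+ and received tamoxifen. Nampt is the enzyme that makes nicotinamide mononucleotide, the precursor of NAD+, and both groups carried the floxed allele. Cre was driven by Krt5, which is active in basal keratinocytes, while each sample also held dermis, vessels and immune cells. Skin was collected on Day 19, and tamoxifen was given at 100 μg/g body weight on 5 consecutive days. The labels record tamoxifen for the Nampt-cKO mice alone, whereas the study's time line and methods describe it for control mice too, so whether these control mice received it was not settled here. Whole skin was measured, so fewer cells of a type and less RNA per cell cannot be told apart either.

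In skin, keratinocytes are the main source of TSLP, which signals through a receptor made of CRLF2 and the IL-7 receptor α chain encoded by Il7r. IL-4 and IL-13 share the IL-4 receptor α chain, which pairs with IL-13Rα1 in keratinocytes and fibroblasts and activates STAT6, while IL-13Rα2 binds IL-13 without that signal and acts largely as a decoy. IL-33 is stored in the nucleus of endothelial cells, fibroblasts and keratinocytes, and eotaxin-1, the product of Ccl11, attracts eosinophils.

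The libraries held 39390895 to 53762935 exon reads. Levels are given as CPM, reads scaled to library size by TMM, except where a comparison between genes needs RPKM, which also divides by exon length. A gene was called when the edgeR quasi-likelihood test gave a Benjamini-Hochberg adjusted p under 0.05 over all 17286 genes tested. In Nampt-cKO skin, 45.7% of tested genes were called, 23.8% as higher and 22.0% as lower, and the CPM of the groups did not overlap for 45.3%. Nampt itself was at 77.7, 72.9, 71.0 and 60.4 CPM in control skin and at 32.3, 37.5, 76.1 and 49.6 CPM in Nampt-cKO skin. For Nampt, the library labelled Nampt-cKO replicate 3 lay within the control range and went against its label. In Tslp (8.55 CPM) and Il4ra (250 CPM) it lay above all control libraries, as did the other Nampt-cKO libraries. Why its Nampt level differed was not tested. The edgeR log2 fold change of Nampt was −0.53 ± 0.24 (SE, adjusted p = 0.0974), and −0.83 ± 0.15 (edgeR adjusted p = 0.00284) without that library.

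Of the 9 members tested, 4 were higher in Nampt-cKO skin (Tslp, Crlf2, Il4ra and Il13ra1), 3 were lower (Il7r, Il13 and Ccl11) and 2 did not pass (Il33 and Il13ra2), against the 45.7% of all tested genes that were called. The groups did not overlap for 5 of the 9, Tslp, Il7r, Il4ra, Il13 and Il13ra1, against 45.3% of all tested genes. Il13 passed the filter on low counts only through the control group, so its call as lower depends on that filter. Without the library labelled Nampt-cKO replicate 3, the calls of Tslp, Il4ra, Il13ra1, Il7r and Ccl11 held, while Crlf2 (edgeR adjusted p = 0.0893) and Il13 (edgeR adjusted p = 0.0697) did not pass. Without Nampt-cKO replicate 2 only 4 members passed, since Crlf2, Il13 and Ccl11 did not.

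**Figure D1:**
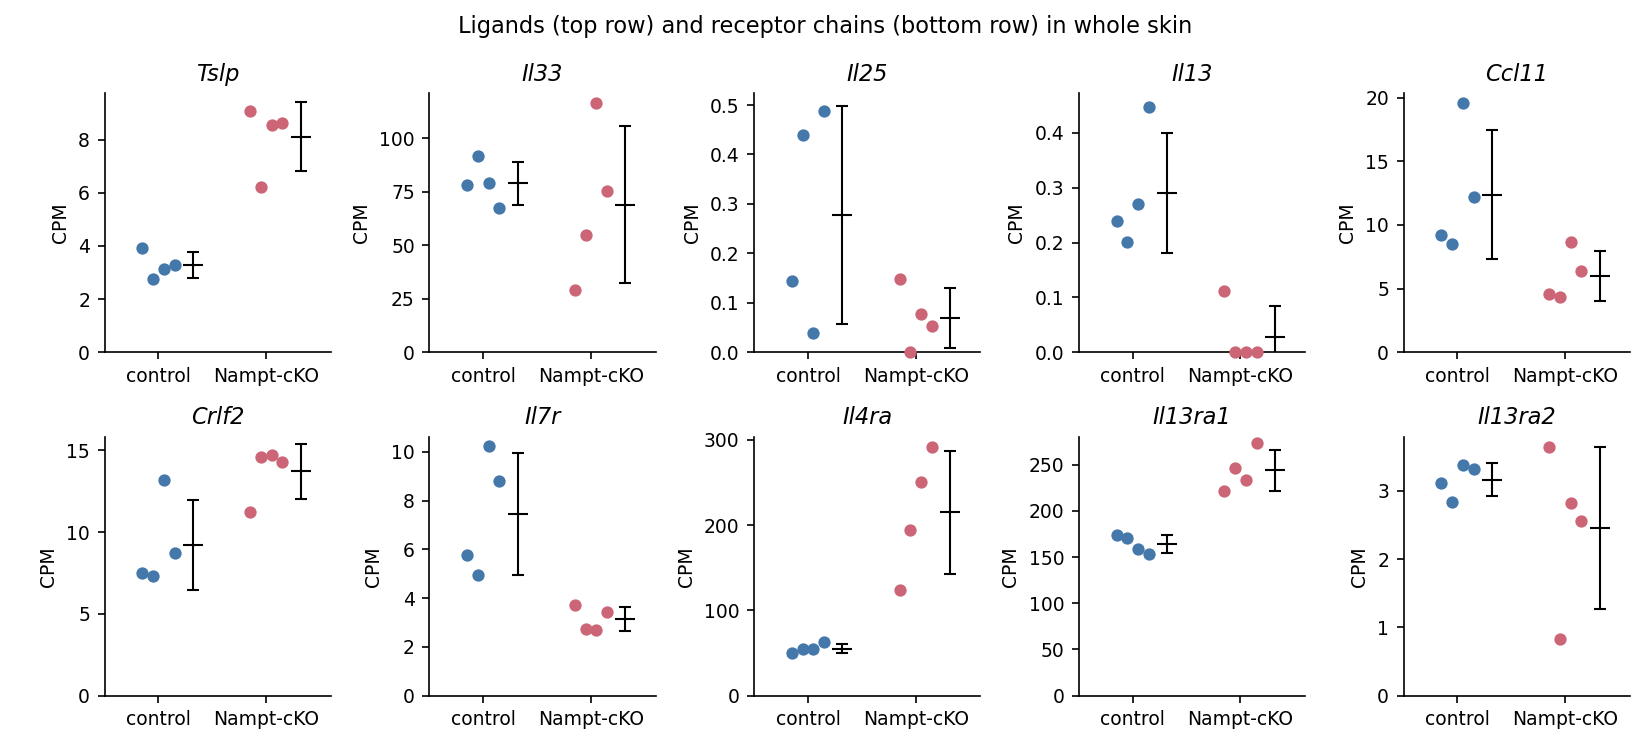
Level in CPM (y axis, linear, from 0) of the 5 ligands in the top row and the 5 receptor chains in the bottom row. Each point is 1 library of control or Nampt-cKO skin (n = 4), and the horizontal mark and bar are the mean and SD, drawn down to 0 at most. Every Nampt-cKO library of Tslp, Il4ra and Il13ra1 lies above every control library, and every Nampt-cKO library of Il7r and Il13 lies below.

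Tslp was the alarmin that rose. It lies on chromosome 18 (GRCm38, 32815383 to 32819799, exon length 1333 bases). Control skin held 3.93, 2.77, 3.13 and 3.28 CPM, and Nampt-cKO skin held 9.09, 6.22, 8.55 and 8.62 CPM. All Nampt-cKO libraries were above all control libraries, and replicate 2 was the lowest of them. The means were 3.28 ± 0.488 and 8.12 ± 1.29 CPM (SD, n = 4 each). The edgeR log2 fold change was 1.31 ± 0.20 (SE), a 2.48-fold rise (adjusted p = 0.000621).

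Several kinds of read were deposited for each gene, and for Tslp they differed in a way that bears on the level. Tslp lies inside the lncRNA gene 4930455D15Rik, which had 0 exon reads in all 8 libraries. The strand setting of the counting was not given, so unspliced reads of overlapping genes cannot be told apart. Only 31.2% of Tslp exon reads were counted as unique, whereas the median over tested genes was 100% and 8.86% of tested genes were under 50%. The unique reads numbered 44, 35, 58 and 56 in control and 135, 113, 135 and 113 in Nampt-cKO skin. Reads across an exon-exon junction, which mark spliced RNA, numbered 44, 35, 66 and 56 against 135, 113, 137 and 113. These counts differed from the unique counts only in control replicate 3 (58 and 66) and Nampt-cKO replicate 3 (135 and 137), so they are not separate checks. Both kinds of read separated the groups, as the total did. Their edgeR log2 fold changes were 1.38 ± 0.28 (SE, adjusted p = 0.00325) for unique reads and 1.28 ± 0.29 (SE, adjusted p = 0.00531) for exon-exon reads. Intron reads of Tslp went from 4, 0, 0 and 2 in control skin to 151, 18, 31 and 29 in Nampt-cKO skin. Nampt-cKO replicate 1 therefore stood apart, with introns taking 23.5% of its Tslp gene reads against 5.63% to 8.06% in the other Nampt-cKO libraries and at most 2.38% in control libraries. Over all genes the intron share was 10.8% to 11.8% in control and 12.7% to 16.5% in Nampt-cKO libraries. The part of this difference in the Tslp intron reads was not tested.

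**Figure D2:**
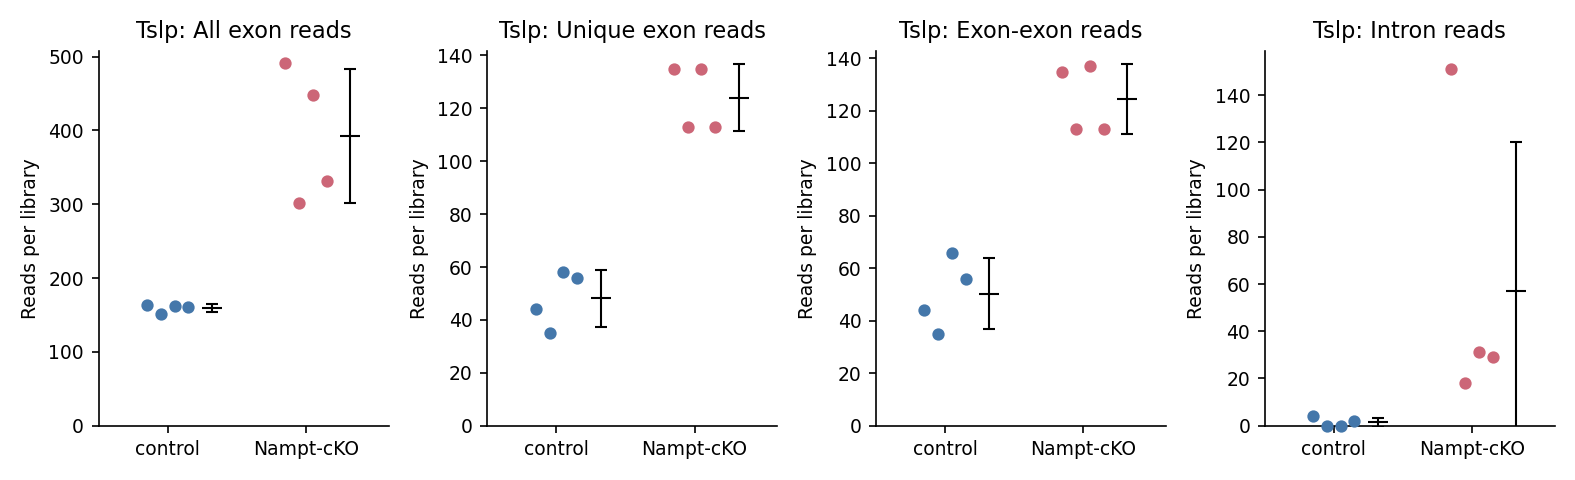
Tslp reads per library (y axis, linear, from 0) by kind of read in control and Nampt-cKO skin. Points are libraries (n = 4 a group), and marks with bars are the mean and SD, drawn down to 0 at most. Exon, unique and exon-exon reads separate the groups, and 151 of the intron reads are in Nampt-cKO replicate 1.

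Il33, the second alarmin, did not pass the test. Il33 (chromosome 19, 29925114 to 29960715) was the most abundant ligand, at 78.0, 91.6, 79.0 and 67.3 CPM in control skin and 29.2, 54.9, 116.6 and 75.5 CPM in Nampt-cKO skin. The Nampt-cKO libraries lay on both sides of the control range, with SDs of 36.9 against 9.93 CPM. Its log2 fold change was −0.19 ± 0.34 (SE, edgeR adjusted p = 0.671). Without Nampt-cKO replicate 1 it was 0.058 (edgeR adjusted p = 0.85), so its sign rested on that library. Across the 4 Nampt-cKO libraries, Il33 had the same order as Nampt and as the summed endothelial markers, which were at 192.8, 209.7, 518.4 and 313.6 CPM in replicates 1 to 4. The macrophage sums (292, 427, 655 and 478 CPM) and the adipocyte sums (56.4, 121, 295 and 141 CPM) had that order as well. The fibroblast sums (2236, 2227, 3616 and 4180 CPM) and the keratinocyte sums (25970, 32516, 23987 and 19798 CPM) did not have it. Nor did the sums of the other marker lists. The part of these cell types in the Il33 level was not tested.

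Il25, the third alarmin, had too few reads to be tested. Its reads numbered 6, 24, 2 and 24 in control skin and 8, 0, 4 and 2 in Nampt-cKO skin, so the groups overlapped. Over each group this was 56 against 14 reads, a control to Nampt-cKO ratio of 4.0 (exact 95% interval 2.20 to 7.78, counting error only). All 8 counts were even and both reads of a pair appear to be counted, so that interval is too narrow. The CPM gave p = 0.2 in a two-sided exact permutation test over the libraries, where 0.0286 is the lowest that 4 against 4 can reach. Of the 56 control reads, 2 crossed an exon-exon junction.

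The chains of the TSLP receptor moved in opposite directions. Crlf2, the TSLP-binding chain (chromosome 5, 109554709 to 109559027), was at 7.53, 7.29, 13.2 and 8.74 CPM in control and at 11.2, 14.6, 14.7 and 14.3 CPM in Nampt-cKO skin. Control replicate 3 was above Nampt-cKO replicate 1, so the groups overlapped. In the edgeR test the log2 fold change was 0.58 ± 0.21 (SE, edgeR adjusted p = 0.0462). That call was lost under 10 of 19 alternatives, which included leaving out control replicate 1, 2 or 4 or Nampt-cKO replicate 2, 3 or 4 (edgeR adjusted p from 0.0893 to 0.125). Summed markers of dendritic and Langerhans cells, which carry CRLF2, were at 901 to 1476 CPM in control and 55.5 to 179 CPM in Nampt-cKO skin, and 6 of 9 were lower. Most of that control sum was Cd74 (749 ± 185 CPM) and H2-Ab1 (309 ± 69.6 CPM, SD, n = 4), and Zbtb46, Ccr7 and Clec9a were not called. Flt3, called lower, passed the filter on low counts only through the control group. The part of these cells in the Crlf2 level was not tested.

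Il7r (chromosome 15, 9506159 to 9529935) encodes the chain shared by the TSLP and IL-7 receptors and is abundant in T cells and innate lymphoid cells. It was at 5.76, 4.95, 10.2 and 8.82 CPM in control and 3.70, 2.74, 2.71 and 3.44 CPM in Nampt-cKO skin. All Nampt-cKO libraries lay below all control libraries. The log2 fold change was −1.24 ± 0.27 (SE, edgeR adjusted p = 0.00443), a 2.36-fold fall, and Il7r passed under each of the 19 alternatives. Most T cell markers fell with it: 6 of 8 tested were lower and 0 higher, while Cd4 and Cd5 were not called. The sum of the list went from 42.9 to 54.6 CPM in control to 8.02 to 13.6 CPM in Nampt-cKO skin. Cd3e, a chain of the T cell receptor complex, went from 10.9 ± 1.20 to 0.878 ± 1.05 CPM (SD, n = 4). Cd3d and Cd3e passed the filter on low counts only through the control group. In the study, CD3 staining at Day 19, which counts cells and not RNA, showed no significant difference. The part of T cell content in the Il7r level was not tested.

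The receptor for IL-4 and IL-13 showed the largest rise among the members. Il4ra (chromosome 7, 125552282 to 125579474) was at 49.9, 54.3, 54.4 and 62.4 CPM in control and 124, 194, 250 and 291 CPM in Nampt-cKO skin. The lowest Nampt-cKO library was above the highest control library. The log2 fold change was 1.96 ± 0.23 (SE), or 3.89-fold (edgeR adjusted p = 0.000174). Exon-exon reads gave 1.99 ± 0.28 (SE, edgeR adjusted p = 0.000386). Neutrophil markers rose in the same libraries, with 9 of 9 tested higher and a sum of 3.17 to 3.96 CPM in control and 34.9, 529, 766 and 172 CPM in Nampt-cKO replicates 1 to 4. Most of that sum was S100a9 (212 ± 194 CPM) and S100a8 (133 ± 124 CPM, SD, n = 4), which inflamed keratinocytes also express. Ly6g, Elane and Mpo had too few reads to be tested. Ngp, Ltf, Retnlg, Camp, Mmp8 and Cxcr2 had control means of 0 to 0.131 CPM. They passed the filter on low counts only through the Nampt-cKO group. Il4ra was highest in replicate 4 and the neutrophil sum in replicate 3. Macrophage markers were higher for 4 of 8 and lower for 1, with sums of 223 to 349 and 292 to 655 CPM. The part of these cells in the Il4ra level was not tested.

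Il13ra1 (chromosome X, 36112108 to 36171262), the signalling partner of the IL-4 receptor α chain outside blood cells, was the most abundant member per length in both groups. It was at 173.5, 170.3, 158.4 and 153.5 CPM in control and 221.7, 246.6, 233.1 and 274.0 CPM in Nampt-cKO skin. The groups were separate, and the spread within each was small. The log2 fold change was 0.57 ± 0.09 (SE, edgeR adjusted p = 0.000606), a 1.49-fold rise. As for Tslp, few of its exon reads were unique (27.4%). Il13ra1 overlaps the lncRNA gene Gm42406, whose exon reads were 0 in all libraries. On unique reads the log2 fold change was 0.66 ± 0.10 (SE, edgeR adjusted p = 0.000705). The unique counts were close to the exon-exon counts in each library, such as 1940 and 1939 in control replicate 1.

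The decoy chain did not rise with it. Il13ra2 (chromosome X, 147383478 to 147429192) was at 3.12, 2.84, 3.38 and 3.32 CPM in control and 3.65, 0.824, 2.82 and 2.55 CPM in Nampt-cKO skin. Nampt-cKO replicate 1 was above all control libraries, and replicates 2, 3 and 4 were below them, replicate 2 by far and replicate 3 only just. Its log2 fold change was −0.36 ± 0.39 (SE, edgeR adjusted p = 0.483).

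Upstream sequence differed between the receptor chains that rose and the decoy. RefSeq windows (GRCm38.p6) were found for 7 of the 10 members, and the 250 bases before the start of the transcript are shown for Il4ra on chr7:125552021-125552270 (plus strand), Il13ra1 on chrX:36111858-36112107 (plus), Crlf2 on chr5:109558994-109559243 (minus) and Il13ra2 on chrX:147429193-147429442 (minus). They are given because the first 3 are the receptor chains called higher, and the last is the decoy partner of Il13ra1. Il7r, the receptor chain called lower, is described without its sequence. Capitals mark GGGCGG (the GC box) or TATAAA (the TATA box) on either strand, and neighbouring matches may share bases.
Il4ra: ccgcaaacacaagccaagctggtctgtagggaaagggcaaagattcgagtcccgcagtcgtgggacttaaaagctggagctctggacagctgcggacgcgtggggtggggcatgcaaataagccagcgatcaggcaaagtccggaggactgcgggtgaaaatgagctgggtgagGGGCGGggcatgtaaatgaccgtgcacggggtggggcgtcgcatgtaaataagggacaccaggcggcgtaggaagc
Il13ra1: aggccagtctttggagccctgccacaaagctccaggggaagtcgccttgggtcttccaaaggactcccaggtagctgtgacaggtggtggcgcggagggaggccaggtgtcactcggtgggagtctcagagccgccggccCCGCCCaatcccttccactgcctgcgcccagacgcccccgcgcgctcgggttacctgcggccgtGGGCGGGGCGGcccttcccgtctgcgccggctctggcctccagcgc
Crlf2: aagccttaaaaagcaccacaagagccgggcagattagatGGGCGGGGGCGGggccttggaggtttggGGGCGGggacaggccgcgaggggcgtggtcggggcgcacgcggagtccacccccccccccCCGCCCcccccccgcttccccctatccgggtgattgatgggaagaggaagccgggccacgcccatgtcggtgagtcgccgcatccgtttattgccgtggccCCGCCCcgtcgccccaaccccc
Il13ra2: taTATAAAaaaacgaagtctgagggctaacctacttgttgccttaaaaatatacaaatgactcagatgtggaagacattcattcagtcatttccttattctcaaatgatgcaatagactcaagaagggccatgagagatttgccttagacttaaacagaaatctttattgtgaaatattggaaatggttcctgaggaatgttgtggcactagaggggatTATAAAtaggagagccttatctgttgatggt

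GGGCGG occurred 1 time before Il4ra, 3 times before Il13ra1 and 5 times before Crlf2, and in no window of Il7r, Il13, Il33 or Il13ra2. The motif was in 32.7% of all 32851 windows. TATAAA, present in 12.4% of windows, was found before Il13, Il33 and Il13ra2, and the Il13ra2 match nearest the start began 31 bases upstream. GC content was 59.6%, 70.8% and 71.6% before Il4ra, Il13ra1 and Crlf2, 44.0% before Il7r and 36.0% before Il13ra2, with a median of 52.4% over all windows. Sites of other factors were also searched on both strands. The STAT spacing TTCNNNNGAA (5.85% of windows) was found before Il33, TTCNNNGAA (7.02%) before Il7r, and the AP-1 motif TGACTCA (4.46%) before Il13ra2. The NF-κB motif (7.25%) was found before none of the 7. These matches describe letters in the windows.

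The receptor chains were also set against each other per length. The RPKM ratio of Il4ra to Il13ra1 was 0.205, 0.228, 0.245 and 0.290 in control and 0.400, 0.563, 0.767 and 0.759 in Nampt-cKO skin. Its mean went from 0.242 ± 0.0359 to 0.622 ± 0.176 (SD, n = 4), and the groups did not overlap. For the decoy, the ratio of Il13ra2 to Il13ra1 was 0.0298 ± 0.00378 in control and 0.0158 ± 0.00844 in Nampt-cKO skin. The highest Nampt-cKO value, 0.0253, was just under the lowest control value, 0.0256.

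For the TSLP receptor, the ratio of Crlf2 to Il7r was 2.63, 2.97, 2.60 and 1.99 in control and 6.11, 10.7, 10.9 and 8.37 in Nampt-cKO skin. Every Nampt-cKO library was above every control library, including the libraries in which Crlf2 alone overlapped. The means were 2.55 ± 0.405 and 9.03 ± 2.27 (SD, n = 4). These ratios are of levels in whole skin and say nothing of the chains within a cell. They are descriptions with no test.

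**Figure D3:**
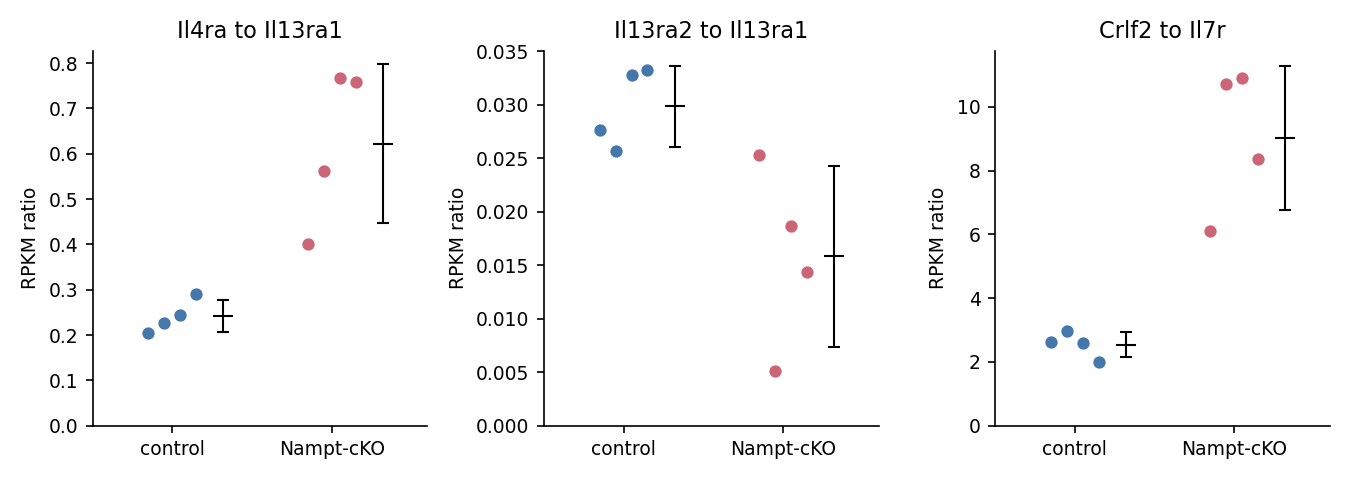
Ratio of RPKM between receptor chains (y axis, linear, from 0) in control and Nampt-cKO skin. Points are libraries (n = 4 a group), and marks with bars are the mean and SD. The Il4ra to Il13ra1 and Crlf2 to Il7r ratios are higher in every Nampt-cKO library, and the Il13ra2 to Il13ra1 ratio is lower.

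While the receptor rose, its ligand was close to the limit of detection. Il13 (chromosome 11, 53631323 to 53634702), made by Th2 cells and group 2 innate lymphoid cells, had 10, 11, 14 and 22 reads in control skin and 6, 0, 0 and 0 in Nampt-cKO skin. All the Nampt-cKO reads were in replicate 1, and the groups did not overlap. The summed reads were 57 and 6, a ratio of 9.50 (exact 95% interval 4.10 to 27.0, counting error only). Of its 8 counts 7 were even, so this interval is too narrow as well. A count of 0 in a library allows up to 3 reads. The edgeR log2 fold change was −3.17 ± 1.05 (SE, adjusted p = 0.0325). Il13 passed the filter on low counts only through the control group, so its call as lower depends on that filter. The size of the change was not fixed by these data: it was −1.38 in limma on log2(RPKM + 0.1), −0.24 on log2(RPKM + 1), and −6.81 without Nampt-cKO replicate 1, where all Nampt-cKO libraries left were at 0 and the fitted value depends on the prior count. That call was lost when all genes with a read were tested (edgeR adjusted p = 0.0817). It was also lost without any 1 of the 4 control libraries or of Nampt-cKO replicates 2, 3 and 4 (edgeR adjusted p from 0.0595 to 0.0885).

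Ccl11 (chromosome 11, 82057832 to 82062955) was at 9.21, 8.50, 19.5 and 12.2 CPM in control and 4.59, 4.33, 8.64 and 6.36 CPM in Nampt-cKO skin. Nampt-cKO replicate 3 was just above control replicate 2, so the groups overlapped. Its log2 fold change was −1.05 ± 0.32 (SE, edgeR adjusted p = 0.0226). Without control replicate 3 the adjusted p was 0.0662, and without Nampt-cKO replicate 2 it was 0.06 (edgeR). Exon-exon reads gave a smaller change of −0.58 ± 0.28 (SE, edgeR adjusted p = 0.129). Eosinophil markers were lower in the same skin, and both tested, Ear2 and Siglecf, were lower. Both passed the filter on low counts only through the control group. The sum of the list went from 11.4 to 22.1 CPM in control to 0.305 to 1.82 CPM in Nampt-cKO skin. Most of that sum was Ear2, and of the defining eosinophil granule genes Epx was at 0 in all libraries and Prg2 had 14 and 8 reads over each group. Fibroblast markers, which mark a known source of eotaxin, were lower for 3 of 7 and higher for 1, with sums of 5121 to 7987 and 2227 to 4180 CPM. Those lower were the collagen genes Col1a1, Col1a2 and Col3a1, which made up most of the control sum. Dcn, Lum and Dpt were not called, and Pdgfra was higher. The part of these cells in the Ccl11 level was not tested.

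**Figure D4:**
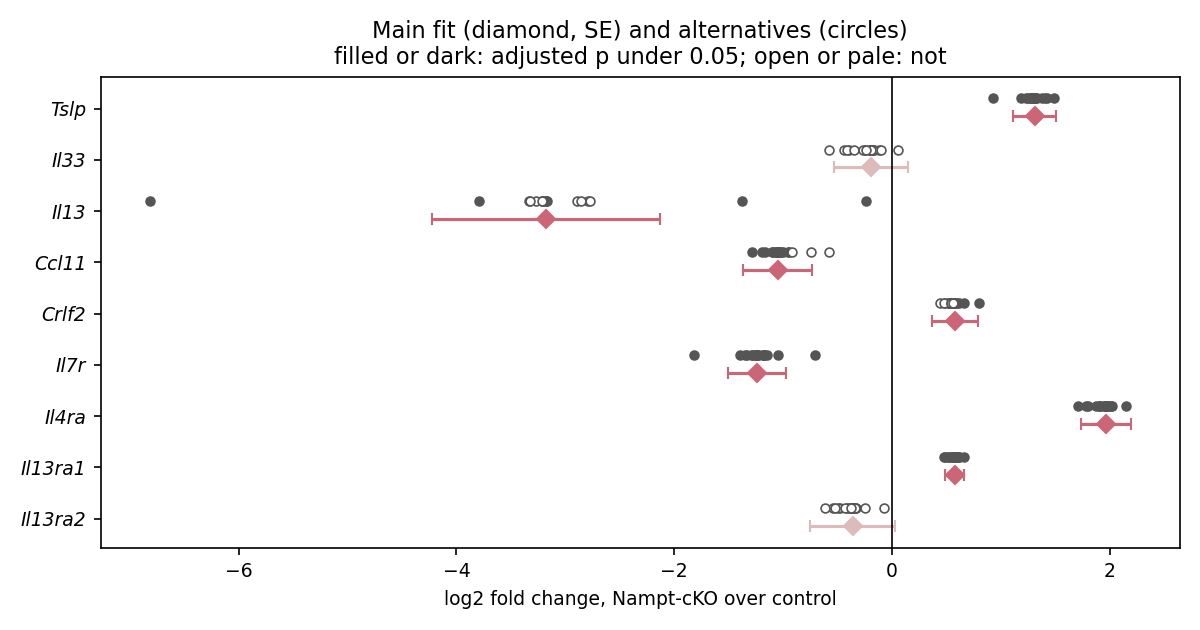
Log2 fold change of Nampt-cKO over control skin (x axis) for the 9 members tested. Diamonds with bars are the value and SE of the main edgeR test and circles are the alternatives, dark where the adjusted p was under 0.05 and pale or open where it was not. Circles of Tslp, Il7r, Il4ra and Il13ra1 are all dark, and those of Crlf2, Il13 and Ccl11 are mixed.

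The order of the members by RPKM changed between the groups. In control skin it ran Il13ra1 (38.1 ± 2.24), Il33 (23.5 ± 3.02), Ccl11 (9.99 ± 4.14), Il4ra (9.17 ± 0.83), Crlf2 (4.90 ± 1.5), Tslp (2.13 ± 0.314), Il7r (1.97 ± 0.669), Il13ra2 (1.13 ± 0.0890), Il13 (0.208 ± 0.0770) and Il25 (0.195 ± 0.154 RPKM, SD, n = 4). The neighbours Ccl11 and Il4ra, Tslp and Il7r, and Il13 and Il25 overlapped. In Nampt-cKO skin Il4ra was second at 33.4 ± 10.3 RPKM, overlapping Il33 at 19.3 ± 10.2, and Tslp, at 4.98 ± 0.864, came next after Crlf2 and overlapped Ccl11 at 4.54 ± 1.48.

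The other genes of the pathway were taken from 6 lists that together held 73 genes. Of the 59 tested, 16 were higher and 16 lower, where 23.8% of all tested genes were higher and 22.0% lower. Those shares stand beside the counts of every list given here. The median log2 fold change of the 59 was −0.08 against −0.01 over all genes tested. None of the 6 other type 2 cytokine genes had enough reads to be tested. Il4 had 6 reads in control and 13 in Nampt-cKO skin, Il5 had 20 and 6, and Csf2 had 16 and 2. Il3 had 0 and 4, and Il9 and Il31 had 0 in all 8 libraries.

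Of 10 tested partner chains of the type 2 receptors, 2 were higher and 0 lower, against 23.8% and 22.0% of all tested genes. Osmr, which pairs with the IL-31 receptor, rose by 1.20 ± 0.13 on the log2 scale (SE, edgeR adjusted p = 0.000131), and Il17ra, shared by the IL-25 and IL-17 receptors, by 0.72 ± 0.19 (SE, edgeR adjusted p = 0.0118). Il1rl1, which encodes the IL-33 receptor ST2, did not pass (log2 fold change 0.74 ± 0.62, SE, edgeR adjusted p = 0.357), nor did Il2rg, the common γ chain, at −0.21 ± 0.19 (SE, edgeR adjusted p = 0.4). Both were looked up after the values were seen.

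Downstream, 6 of 16 signalling genes were higher and 3 lower, against 23.8% and 22.0% of all tested genes. Stat3 rose by 1.17 ± 0.11 on the log2 scale (SE, edgeR adjusted p = 5.28e-05), and Myd88, the adaptor of the IL-33 receptor, by 0.86 ± 0.13 (SE, edgeR adjusted p = 0.000804). Stat5b and Stat5a, which TSLP activates, had log2 fold changes of −0.53 ± 0.11 and −0.46 ± 0.11 (SE, edgeR adjusted p = 0.0042 and 0.00579). Stat6, the factor downstream of IL-4Rα, was at 152 ± 9.68 and 139 ± 6.48 CPM (SD, n = 4, edgeR adjusted p = 0.164).

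Genes known to respond to IL-4 and IL-13 went both ways, with 4 of 11 tested higher and 4 lower, against 23.8% and 22.0% of all tested genes. Chil3, a chitinase-like protein of macrophages and neutrophils, rose from 0.0606 ± 0.0730 to 11.2 ± 6.53 CPM, and Postn, a matrix protein of fibroblasts, from 519.6 ± 73.4 to 1593 ± 506 CPM (SD, n = 4). Mrc1, the mannose receptor, rose from 37.2 ± 14.9 to 116 ± 63.8 CPM (SD, n = 4), though its groups overlapped. Like Chil3 and Mrc1, Retnla and Mgl2 are used as markers of alternatively activated macrophages in mice. Retnla fell from 4.24 ± 2.79 to 0.0451 ± 0.0533 CPM and Mgl2 from 53.6 ± 16.4 to 8.47 ± 4.26 CPM (SD, n = 4). Chil3 passed the filter on low counts only through the Nampt-cKO group, and Retnla only through the control group. Of 8 tested type 2 chemokines and receptors, 1 was higher and 2 were lower. Ccr4, the receptor for CCL17 and CCL22, fell from 16.5 ± 1.96 to 0.649 ± 0.344 CPM (SD, n = 4), and Ccl24, or eotaxin-2, from 1.16 ± 0.351 to 0.232 ± 0.120 CPM. Ccl24 passed the filter on low counts only through the control group.

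Among 17 genes known to regulate TSLP in keratinocytes, 3 were higher and 8 lower, against 23.8% and 22.0% of all tested genes. Their median log2 fold change was −0.29. Vdr, the vitamin D receptor, whose ligands induce Tslp in mouse skin, rose from 281 ± 10.9 to 603 ± 120 CPM (SD, n = 4). Only 18.6% of its exon reads in control and 19.2% in Nampt-cKO skin were counted as unique. Cyp24a1, the vitamin D hydroxylase that VDR induces, had 0 reads in all control libraries and 2006 in the Nampt-cKO libraries. That is at least 669-fold higher against 3 reads over the control group. The gene passed the filter on low counts only through the Nampt-cKO group. The median was unaffected by where this gene is placed above it. Klk14, a protease of the stratum corneum, rose from 0.902 ± 0.250 to 7.00 ± 6.18 CPM (SD, n = 4), though its groups overlapped. Klk5 fell from 94.8 ± 3.81 to 49.9 ± 10.2 CPM and its inhibitor Spink5 from 893 ± 56.8 to 489 ± 110 CPM (SD, n = 4). Notch2, a receptor of the Notch pathway, whose loss raises TSLP in mouse skin, had a log2 fold change of −0.59 ± 0.09 (SE, edgeR adjusted p = 0.000559). Col17a1, the most abundant gene of the list, was at 2606 ± 135 and 2096 ± 546 CPM (SD, n = 4, edgeR adjusted p = 0.152).

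The genes most like a member over the 8 libraries were taken by the smallest root mean square difference of centred log2 CPM among 13613 genes. For Tslp they were Spry4 (0.16), Serpine2 (0.17) and Kirrel (0.19). For Il4ra they were Nfe2l2 (0.14), Rnf122 (0.16) and Gk (0.16), and for Il33 they were Ccbe1 (0.13), Rapsn (0.15) and Hey2 (0.19).

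Of the other cell types a skin sample holds, ILC2 and Th2 markers were lower for 2 of 6 tested and higher for 1, with sums of 500 to 569 and 197 to 283 CPM. Most of that control sum was Gata3, at 330 ± 28.3 CPM (SD, n = 4), which keratinocytes also express. The marker called higher was Areg, which rose from 11.3 ± 10.3 to 79.1 ± 59.2 CPM (SD, n = 4). Keratinocyte markers were lower for 3 of 8 and higher for 1, with sums of 31753 to 35465 and 19798 to 32516 CPM, and Krt5 was at 7553 ± 380 and 8551 ± 1294 CPM (SD, n = 4, edgeR adjusted p = 0.216). Mast cell markers were higher for 2 of 8, Hdc and Tpsb2, and lower for 1, Mrgprb2. Hdc rose from 2.52 ± 1.47 to 14.0 ± 4.15 CPM (SD, n = 4). Tpsb2 rose from 1.82 ± 1.20 to 7.43 ± 4.87 CPM (SD, n = 4), though its groups overlapped. Mrgprb2, a receptor of connective tissue mast cells, fell from 21.2 ± 3.09 to 1.05 ± 0.299 CPM (SD, n = 4). Neither the 1 basophil marker tested, Ms4a2, nor any of 6 skeletal muscle markers passed, and no B cell marker could be tested. The other basophil markers had too few reads to be tested. Over each group, Fcer1a, also a mast cell marker, had 0 reads in control and 94 in Nampt-cKO skin. Mcpt8 had 0 and 24, Prss34 had 0 and 22, and Cd200r3 had 11 and 44. Of 7 endothelial markers 1 was higher and 1 lower, and of 5 adipocyte markers 2 were lower. Lep, an adipocyte marker called lower, passed the filter on low counts only through the control group.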

How the data were processed

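Libraries from poly-A selected RNA of whole skin were sequenced on an Illumina NovaSeq (n = 4 mice a group). The deposited table held, for each library, counts of total exon, unique exon, total gene, intron and exon-exon reads and the RPKM values made by the authors. GRCm38 (mm10) is the build in the submitters' processing notes. The aligner, the counter, the annotation release and the strand setting were not given in the sources used here. Deposited starts were 0-based and are printed 1-based. The deposited RPKM were relative to a library total above the sum of gene reads.

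Total exon reads were tested with edgeR 4.0.16 (R 4.3.3): filterByExpr, TMM, a model of group alone and the quasi-likelihood test, with Benjamini-Hochberg adjustment over 17286 genes and a threshold of 0.05. A gene near 0 in 1 group could pass filterByExpr only through the other group, and its call then depends on that filter. The fit was tested on simulated data. SEs were the log2 fold change over the square root of F. Alternatives were RLE and upper-quartile scaling, DESeq2 1.42.0, no filter, at least 1 CPM in 4 libraries, unique exon and total gene reads, limma 3.58.1 on log2(RPKM + 0.1) and log2(RPKM + 1), the replicate number as a block, and leaving out each library. Exon-exon reads were added after seeing the data. Promoter windows came from RefSeq. The text names all members, of each pathway list up to 4 genes a direction by p and the most abundant, and the 2 most abundant or the defining genes of 14 marker lists. Of the genes chosen in this way, 1 is not reported here. Members and lists were chosen with earlier results of these data known. Nothing says that the mice came from separate litters or batches, so the p-values cover only the variation among these libraries, which may be partly technical.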

Additional observations from a re-analysis of the deposited data

Results flagged for a closer look

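In 26 groups of 4 values (the CPM of each member and the receptor ratios), 2 held a library far from the rest, and chance alone gives about 1 in 20. Crlf2 was at 11.2 CPM in Nampt-cKO replicate 1, well below the other Nampt-cKO libraries. Il13 was at 0.111 CPM in Nampt-cKO replicate 1, where the other 3 Nampt-cKO libraries had no read. With those libraries at 0, any read in replicate 1 would be flagged, so the chance rate does not apply to Il13.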

How the results depend on the processing

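Tslp, Il7r, Il4ra and Il13ra1 kept their direction and their call under all 19 alternatives. Between 4 and 7 members passed when 1 library was left out, and 4 passed on exon-exon reads, where Ccl11 and Crlf2 lost their call and Il13 had too few reads to be tested. Il33 ran from −0.58 to 0.058 when 1 library was left out, and turned to 0.058 without Nampt-cKO replicate 1. Between 29 and 36 pathway genes passed when 1 library was left out, against 32. The log2 fold change of Nampt ran from −0.83 to −0.38 when 1 library was left out, and Nampt passed at −0.68 and −0.62 in the limma fits with pseudocounts of 0.1 and 1. Il13 gave no value under the stricter filter. The cause of these changes was not tested beyond the number of samples or genes in each fit. With the replicate number as a block, 7 members and 34 pathway genes passed and the Nampt log2 fold change was −0.60 (edgeR adjusted p = 0.0641), so the block changed no call of a member. Same-numbered libraries deviated together with correlations of −0.05 to 0.18, not every library correlated best with its own number, and the labels do not say that numbers pair the mice. Counts of a few reads limit Il13 and Il25, and intervals there cover counting error only.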
